A study of Mus musculus with 4 samples.

Results

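The Ly49 receptors are a family of lectin-like proteins of the mouse, encoded by Klra genes, and 8 of these genes were followed here through the lymphocytes of the mammary gland. The 8 were Klra4, Klra8, Klra1, Klra7, Klra9, Klra5, Klra6 and Klra13-ps, out of 14 Klra symbols and 55253 genes that could be matched by symbol between both gene matrices. They were chosen as named members of the family. All 8 had counts, but Klra5 and Klra6 were too sparse in some cell classes to pass the filter on low counts of a test, which is stated where it applies.

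Cells positive for CD45, a surface protein of blood-derived cells, came from mouse mammary glands and were sequenced by droplets (10x Genomics 3′ v3.1) in 2 pooled libraries, called here the first (DR_MG_2021) and the second (DR_MG_2022). Within a library, hash tags (antibodies that carry a DNA barcode) mark the samples, which the deposited tag sheets name Nulliparous, Gestation, Lactation and Germ-free in the first library, and Nulliparous, Gestation, Lactation, Involution, Regression, Germ-free, GF and Balb/c in the second library. Each name has 1 tag and so 1 hash-defined sample per library, except that the Nulliparous tag of the second library had 1 count in all kept cells and gave no sample. The Germ-free name of tag HT2 is at odds with the library titles, so these samples are called the HT2 samples and enter no contrast between stages. They enter the contrasts within a sample and between libraries, the ranges over samples, and the samples set beside Balb/c. The sources used here do not give the strain of the samples other than Balb/c, the animals behind each tag, their age, or the stage at which Balb/c and GF glands were taken. All groups share the tissue and the CD45 selection, and no transgene, deletion or drug is named.

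Ly49 receptors sit on natural killer (NK) cells and on some T cells and read class I MHC molecules on the cells they meet. Most are inhibitory: a motif in their tail recruits the phosphatase Ptpn6 and holds the NK cell back when a class I ligand is present. A few are activating, lack that motif, and signal through the adaptors Tyrobp and Hcst. Single NK cells express varied combinations of the genes, and inbred strains differ in which Ly49 genes their cluster carries.

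All 8 genes lie in 1 stretch of chromosome 6, between positions 129898988 and 130386874 of GRCm38.p6 (RefSeq), the same build as the mm10 that the submitters' processing notes name. Promoter windows of 300 bases, from 250 bases before to 50 bases after a transcript start, were found in RefSeq for 7 members, with no entry for Klra13-ps. The windows of 5 members are shown because these differed most in the cells that held their counts: Klra4 and Klra8 were found in NK cells, Klra5 and Klra6 mostly in T cells, and Klra7 in both. Capitals mark AGGAGGGGCAGAAAA, the longest run of bases shared by all windows of Klra4, Klra5, Klra6, Klra8 and Klra9, a choice made after the windows were read. All windows are on the minus strand and are written 5′ to 3′.

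Klra4, chr6:130067222-130067521: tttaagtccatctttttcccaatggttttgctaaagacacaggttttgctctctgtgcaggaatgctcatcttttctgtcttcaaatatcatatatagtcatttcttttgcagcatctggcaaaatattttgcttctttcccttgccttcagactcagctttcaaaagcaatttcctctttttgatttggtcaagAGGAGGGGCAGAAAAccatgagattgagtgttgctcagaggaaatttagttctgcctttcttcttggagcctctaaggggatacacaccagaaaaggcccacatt
Klra8, chr6:130129849-130130148: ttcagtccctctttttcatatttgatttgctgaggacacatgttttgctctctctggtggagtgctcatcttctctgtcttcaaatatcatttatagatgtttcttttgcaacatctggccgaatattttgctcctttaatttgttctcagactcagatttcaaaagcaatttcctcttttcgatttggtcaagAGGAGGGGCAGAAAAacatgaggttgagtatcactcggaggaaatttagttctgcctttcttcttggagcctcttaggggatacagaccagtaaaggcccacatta
Klra5, chr6:129913175-129913474: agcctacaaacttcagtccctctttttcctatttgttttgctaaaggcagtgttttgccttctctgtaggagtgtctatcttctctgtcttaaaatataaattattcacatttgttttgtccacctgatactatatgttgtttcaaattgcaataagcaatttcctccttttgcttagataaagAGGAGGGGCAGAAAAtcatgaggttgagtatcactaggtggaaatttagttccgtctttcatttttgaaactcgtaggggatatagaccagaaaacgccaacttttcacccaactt
Klra6, chr6:130026905-130027204: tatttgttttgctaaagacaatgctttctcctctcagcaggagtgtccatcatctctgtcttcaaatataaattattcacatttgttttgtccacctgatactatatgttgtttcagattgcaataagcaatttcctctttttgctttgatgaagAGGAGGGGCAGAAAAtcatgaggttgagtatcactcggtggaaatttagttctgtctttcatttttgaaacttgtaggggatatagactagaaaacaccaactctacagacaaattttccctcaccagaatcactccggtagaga
Klra7, chr6:130233273-130233572: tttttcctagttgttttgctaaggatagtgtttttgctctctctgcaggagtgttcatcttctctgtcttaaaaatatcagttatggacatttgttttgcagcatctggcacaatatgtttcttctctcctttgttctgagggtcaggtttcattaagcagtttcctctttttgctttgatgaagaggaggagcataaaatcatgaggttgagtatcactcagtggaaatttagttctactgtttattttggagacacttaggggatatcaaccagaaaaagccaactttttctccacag

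On either strand, the block was in 9 of 32851 mouse promoter windows (0.0274%), which belong to 8 symbols: Klra3, Klra4, Klra5, Klra6, Klra8, Klra9, Klra17 and Gm52487. Of the 7 members with a window, 5 held it because the block was defined by them, and Klra1 and Klra7 did not. It begins 55 bases before the start in Klra4, 56 in the Klra8 window shown, 66 in Klra5 and 95 in Klra6. Over the bases that aligned, the windows of Klra4 and Klra8 were 86.6% identical and those of Klra5 and Klra6 90.8%, while Klra4 and Klra5 shared 76.6%. Klra9, which was higher in NK cells than in T cells, was 92.6% identical to Klra6 and 89.0% to Klra5, against 78.1% to Klra4 and 83.6% to the Klra8 window shown. The windows of Klra4 and Klra8, in turn, were between 76.6% and 81.3% identical to those of Klra5 and Klra6. Whether the sequence of a window bears on the cells that held the counts was not tested. The letters of a T-box core, GGTGTGA, were in 3.98% of all windows and those of a Runx core, TGTGGT, in 16.8%, and among the members only Klra1 held either. A match in letters is not a binding site. Genes this alike also share transcript sequence, and the sources used here do not say how the counting treated reads that fit more than 1 of them, so counts of single members are uncertain to that extent.

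Cells were sorted into classes by raw UMIs (unique molecular identifiers, 1 per captured transcript). The NK gate held cells with Ncr1 and Eomes UMIs and none of Cd3e, Itgae or Gzmc, and it had 278 cells in the first library and 414 in the second library without Balb/c. The Eomes-negative innate gate was the same without an Eomes UMI (930 and 483 cells). The Itgae/Gzmc innate gate had Ncr1, no Cd3e, and a UMI of Itgae (the integrin of tissue-resident lymphocytes) or Gzmc (a granzyme), with 345 and 205 cells. Among T cells, an Itgae/Gzmc T gate held cells with Cd3e, no Ncr1 and a UMI of Itgae or Gzmc (992 and 939 cells), and the other T gate had neither (2158 and 2829 cells). A Cd3e Ncr1 gate held cells with both genes (201 and 322 cells). Zero counts do not prove absence, so gates mix, above all the first pair, which a sparse gene separates.

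Markers that the gates did not use followed the names in part. Prf1, the pore-forming protein of killer cells, was at 8.65 and 6.99 UMIs per 10000 in the NK gate in the first and the second library and at 1.10 and 1.91 in the Itgae/Gzmc innate gate. Itga1, an integrin of ILC1 (tissue-resident innate lymphocytes), ran the other way, at 0.48 and 0.59 against 4.89 and 5.95. Cd3g, a T cell gene, was at 0.31 in the NK gate of the first library and at 1.94 in the Itgae/Gzmc innate gate, so the latter is called by its rule and not as a cell type. Summed markers of myeloid cells came to 7.02 in the Eomes-negative innate gate in the first library and 24.3 in the second library, against 6.42 and 10.4 in the NK gate and 127 and 140 in myeloid cells. Their part in the results was not tested. Of the analysed cells, 15145 were in the first library and 14563 in the second library, with medians of 1352 and 2805 UMIs, and 139 cell barcodes occur in both libraries.

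The activating receptor gene Klra4 (Ly49D) was an NK cell gene in every sample other than Balb/c. Its level in the NK gate was lowest at 4.82 UMIs per 10000 UMIs of the gate, in the Gestation sample of the second library, with a median of 6.41 and a highest value of 8.12, in the HT2 sample of the second library. Among Itgae/Gzmc innate cells, the 6 samples with at least 20 cells lay between 0.23 and 1.32, with a median of 0.46. In the Itgae/Gzmc T gate, 4 of 9 samples had no Klra4 UMI, and the highest had 0.17. The NK gate and these gates did not overlap. B cells, which should lack the gene, gave 0.08 in the first library and 0.03 in the second library, so the pooled T gate levels of 0.03 in both libraries were at or below this background.

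Klra8 (Ly49H), the activating receptor known for recognising a cytomegalovirus protein, had a similar distribution. Its level in the NK gate ran from 2.57, in the Lactation sample of the first library, over a median of 4.60 to 8.51, in the Lactation sample of the second library. Among Itgae/Gzmc innate cells it was 0.17 at the lowest, 1.07 at the median and 2.90 at the highest, so the highest sample reached into the NK range. Within each of the 6 samples the Itgae/Gzmc innate gate was the lower one. No Itgae/Gzmc T gate sample was above 0.24.

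**Figure D1:**
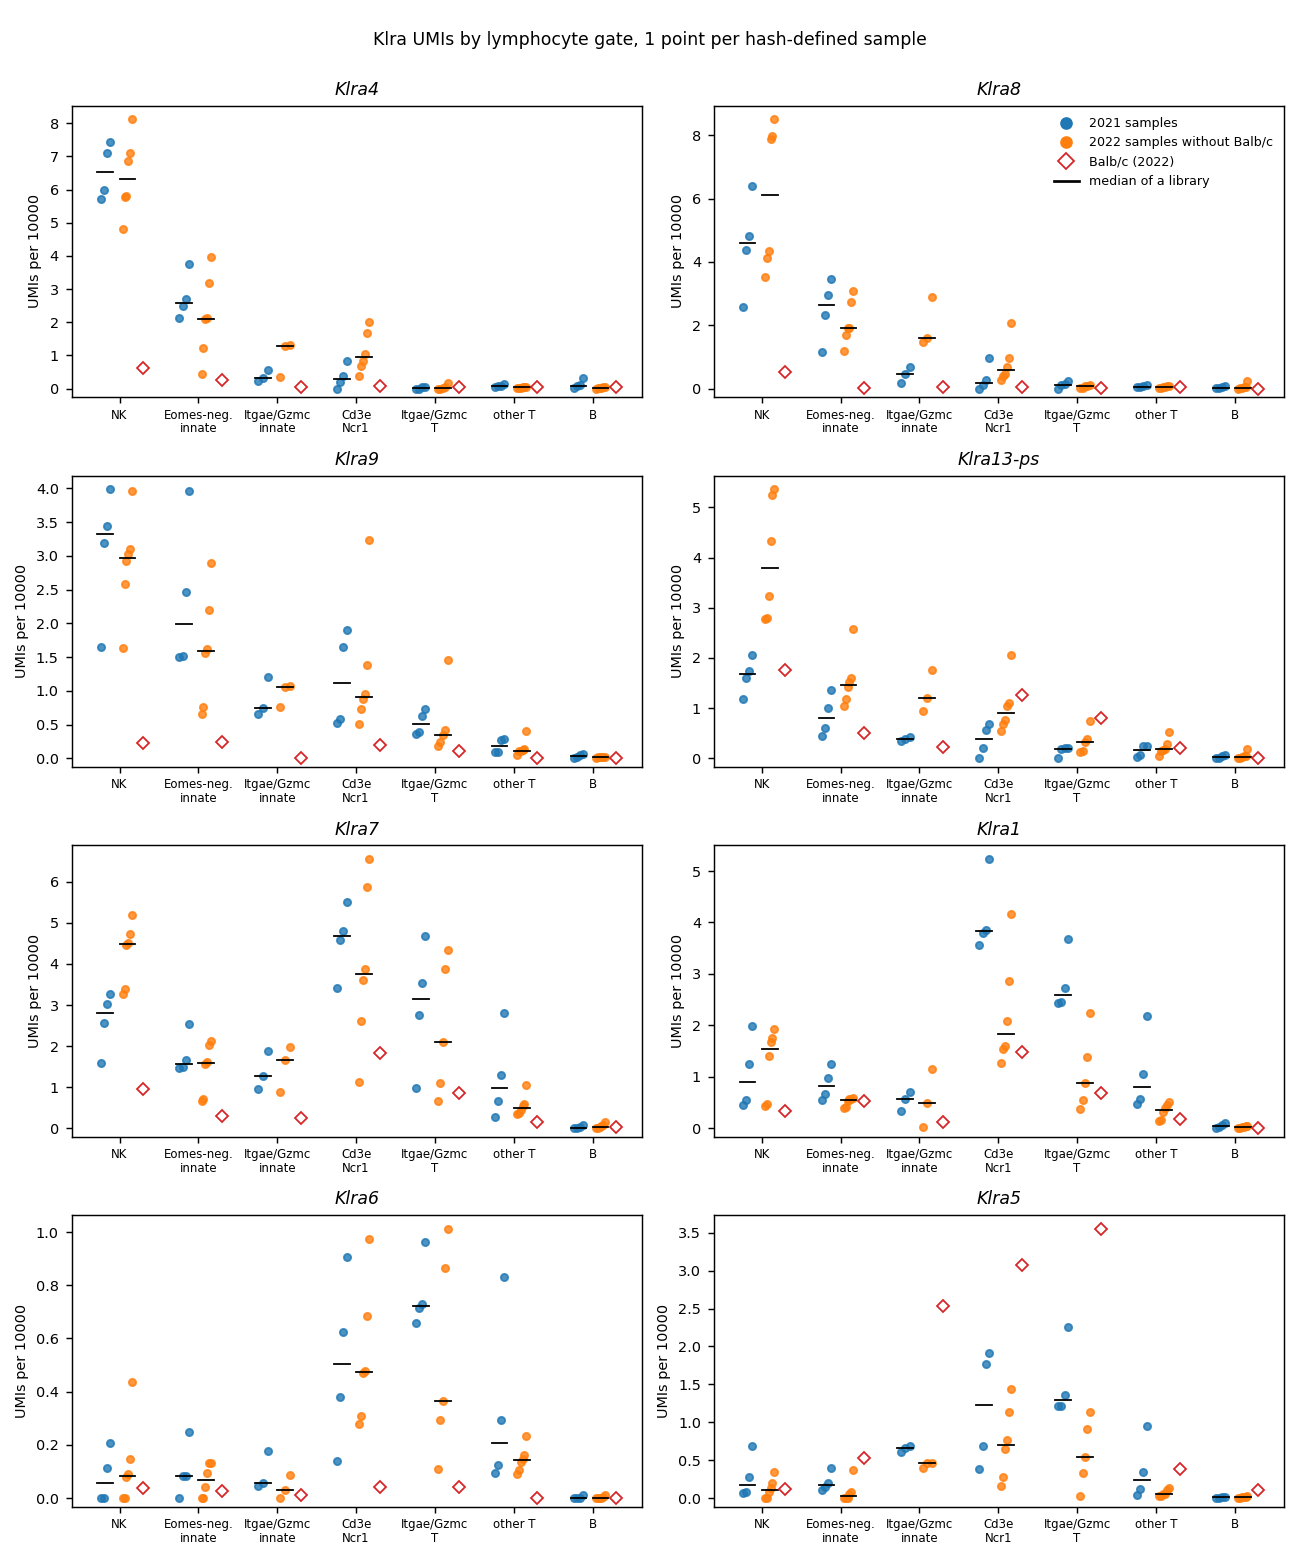
Klra UMIs per 10000 UMIs of a gate (vertical axes, a scale of its own in each panel) for the 8 members in 7 gates, with 1 point per hash-defined sample of at least 20 cells, bars at the median of each library and Balb/c as open diamonds (libraries are marked by the year in their names). Klra4 and Klra8 are highest in the NK gate in the samples other than Balb/c, whereas Klra5 in Balb/c is at 2.53 in the Itgae/Gzmc innate gate and 3.55 in the Itgae/Gzmc T gate.

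Setting the Itgae/Gzmc innate gate against the NK gate within the 6 samples that had 20 cells in both, 5 of 7 members tested were lower and 0 higher, where 6.04% of the 3526 genes tested were called lower and 4.79% higher. These calls are by edgeR's quasi-likelihood test with Benjamini-Hochberg adjustment over all genes tested. The log2 fold change of Klra4 was -3.18 (SE 0.26, adjusted p = 2.5e-09), and Klra4 was lower in 6 of 6 samples. That of Klra8 was -2.05 (SE 0.27, adjusted p = 5.5e-06). The pseudogene Klra13-ps (Ly49M) fell with them, at -1.70 (SE 0.19, adjusted p = 8.2e-07). The median over the 7 members was -1.45, beside 0.02 over all genes. As each name has 1 tag in a library, these p-values measure the spread between hash-defined samples, which may in part be technical.

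The inhibitory members differed among themselves in this contrast. Klra9 (Ly49I) lay between 1.64 and 3.99 UMIs per 10000 in the NK gate of these samples and between 0.66 and 1.21 in the Itgae/Gzmc innate gate, without overlap, and its log2 fold change was -1.45 (SE 0.19, adjusted p = 5.4e-06). Klra7 (Ly49G) had medians of 3.27 and 1.46, was lower in 5 of 6 samples, and fell by 1.24 on the log2 scale (SE 0.22, adjusted p = 0.00028). In the first library alone its value was -0.82 (adjusted p = 0.053). Klra1 (Ly49A) had medians of 0.51 and 0.53 and was lower in 3 of 6 samples. Its log2 fold change of -0.71 (SE 0.45) did not pass (adjusted p = 0.42). Klra6 (Ly49F) was at or below 0.44 in every sample of both gates and was not tested.

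Klra5 (Ly49E) was the exception in sign. It was higher in the Itgae/Gzmc innate gate in 5 of 6 samples, with medians of 0.53 against 0.20 UMIs per 10000. Its log2 fold change was 1.25 (SE 0.41), and it missed the threshold (adjusted p = 0.054). With all genes tested irrespective of their counts the adjusted p was 0.010, and by DESeq2 it was 0.29. In the Itgae/Gzmc innate cells with an Eomes UMI, Klra5 had 0 counts in 20 cells of the first library and 39 of the second library, with exact 95% upper limits of 0.67 and 0.16 UMIs per 10000, and in the cells without one it was at 0.70 and 0.47. Klra4 went the other way, at 2.36 and 3.09 with an Eomes UMI and 0.38 in both libraries without. The cells with an Eomes UMI were few, and these values come without a test. Cells of the Itgae/Gzmc innate gate were deeper, with a median of 2284 UMIs in the first library and 4228 in the second library, than those of the NK gate, at 1375.5 and 3239.5.

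Even without Itgae and Gzmc, cells that lacked an Eomes UMI had fewer transcripts of the family. Over 10 samples, the 8 members summed to between 15.4 and 30.8 UMIs per 10000 in the NK gate and between 4.56 and 15.3 in the Eomes-negative innate gate. Of 6 members tested, 4 were lower and 0 higher, while 1.81% of 3433 genes were called lower and 1.89% higher by edgeR's quasi-likelihood test. Klra4 fell by 1.37 on the log2 scale (SE 0.15, adjusted p = 3.0e-06), Klra8 by 1.16 (SE 0.12, adjusted p = 1.8e-06), Klra13-ps by 1.14 and Klra7 by 1.05. Each of Klra4, Klra8 and Klra13-ps was lower in 10 of 10 samples. Klra1 at -0.81 (adjusted p = 0.050382) and Klra9 at -0.52 (adjusted p = 0.068) did not pass. In the first library alone 2 members passed, and after thinning every cell to 1000 UMIs 1 did.

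**Figure D2:**
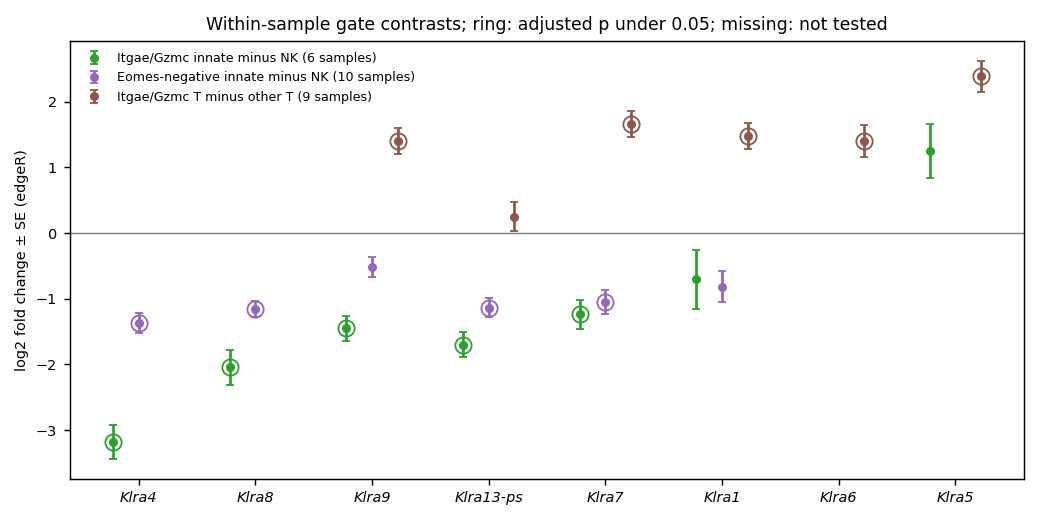
Log2 fold change with its standard error (vertical axis) of each member in 3 contrasts made within samples, fitted with edgeR, where rings mark an adjusted p under 0.05 and a missing point a gene that was not tested. Klra4 has the value -3.18 in the Itgae/Gzmc innate gate against the NK gate, and Klra5 has 2.39 in the Itgae/Gzmc T gate against other T cells.

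In T cells with Itgae or Gzmc, 5 members rose, with the largest change in Klra5. Klra5 lay between 0.02, in the Regression sample of the second library, and 2.26, in the Lactation sample of the first library, in the Itgae/Gzmc T gate, with a median of 1.13 UMIs per 10000. In the other T gate the median was 0.10 in the same 9 samples, and the highest was 0.94. Klra5 was higher in the Itgae/Gzmc T gate within 9 of 9 samples. The log2 fold change was 2.39 (SE 0.24, adjusted p = 1.8e-06).

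Klra7, Klra1, Klra9 and Klra6 were likewise higher in T cells with Itgae or Gzmc. Klra7 had a median of 2.76 UMIs per 10000 against 0.54 and was 1.66 higher on the log2 scale (SE 0.19, adjusted p = 1.1e-05). Klra1 had 2.24 against 0.47 and a change of 1.48 (SE 0.20, adjusted p = 3.3e-05). Klra9, at 0.38 against 0.12, changed by 1.40 (SE 0.20, adjusted p = 5.8e-05), and Klra6, at 0.71 against 0.15, by 1.41 (SE 0.24, adjusted p = 0.00044). Klra6 was higher in 8 of 9 samples and the other 3 genes in all 9, but for none of the 4 were the gates free of overlap between samples. In all, 5 of 6 members tested were higher, while 6.81% of 7419 genes were called higher and 7.06% lower by edgeR's quasi-likelihood test. Klra13-ps, at 0.25 (SE 0.22, adjusted p = 0.55), did not pass, and Klra4 and Klra8 had too few counts to be tested.

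Most members were lower in the Itgae/Gzmc innate gate than in the NK gate, and most of those tested were higher in the Itgae/Gzmc T gate than in the other T gate. These contrasts are not the same split, since the NK gate also requires an Eomes UMI and the T gates have no rule on Eomes, so the innate contrast also differs in Eomes. The difference of the contrasts was tested in the 6 samples that hold all 4 gates. This fit had 1 block per sample and 15 residual degrees of freedom, although each sample gives 1 value of the difference. Its p-values treat gates of 1 sample as separate sums and may be too small. It was called for 3 of 8 members by edgeR's quasi-likelihood test: Klra7 at 2.92 on the log2 scale (SE 0.51, adjusted p = 0.0011), Klra9 at 2.98 (SE 0.43, adjusted p = 0.00016) and Klra13-ps at 1.93 (SE 0.39, adjusted p = 0.0055). Of 6564 genes, 2.27% were called. Klra5, positive in both contrasts, gave 1.11 (SE 0.68, adjusted p = 0.54), and Klra1, at 2.29 (SE 0.64, adjusted p = 0.053), missed the threshold.

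The NK gate and the Itgae/Gzmc T gate were also set against each other in 9 samples. Klra4 was 7.45 higher on the log2 scale in NK cells (SE 0.30) and Klra8 6.20 (SE 0.22). Because the T gate was near the background of B cells for both, these fold changes rest on few T cell counts. Both genes were too sparse for a test between the T gates and entered this one through their NK gate counts. The size of these changes therefore reflects that floor, and their p-values are not given. Klra13-ps (3.38) and Klra9 (2.46) were higher in NK cells too, so 4 of 6 members tested were higher and 0 lower, where 9.17% of 3619 genes were called higher and 8.12% lower by edgeR's quasi-likelihood test. As Klra4 and Klra8 passed the filter through the NK gate, only Klra13-ps and Klra9 among the 4 can be read against that share. Klra7 at 0.51 (SE 0.29, adjusted p = 0.28) and Klra1 at -0.64 (SE 0.34, adjusted p = 0.23) did not pass. Klra5 and Klra6 were not tested. Klra6 was lower in the NK gate in 9 of 9 samples and Klra5 in 8 of 9. Without the HT2 samples 5 members were called here, 5 in the Eomes-negative innate contrast and 5 in the T contrast.

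Which T cells carried the family was read from the coreceptor genes. In the Itgae/Gzmc T gate of the first library, Klra7 was at 0.91 UMIs per 10000 (95% interval 0.57 to 1.38) in cells with Cd8b1, the beta chain of CD8 on conventional CD8 T cells. It was at 4.81 (4.26 to 5.42) in cells with Cd8a and no Cd8b1, the CD8 alpha pattern of many tissue-resident T cells, and at 3.68 (3.37 to 4.02) in cells with none of Cd4, Cd8a and Cd8b1. In the second library these values were 0.58, 5.20 and 3.10. Klra5 showed the same order, at 0.25, 2.26 and 1.67 in the first library and at 0.13, 1.51 and 0.69 in the second library. Klra1 and Klra9 differed in the first library, where cells with none of the coreceptor genes were highest. They were at 3.49 and 0.63 there, against 2.64 and 0.28 in cells with Cd8a and no Cd8b1. In the second library these values were 1.72 and 0.74 against 1.77 and 0.95. Cells with Cd4 and no Cd8a or Cd8b1 were few, 8 in the first library and 49 in the second, with Klra7 at 0.57 (0.014 to 3.18) and 0.72 (0.42 to 1.15). Klra1 was at 3.99 (1.61 to 8.23) and 0.295 (0.119 to 0.608) in them. The other T gate had the same order for Klra7, at 0.14, 2.16 and 1.53 in the first library and 0.13, 2.40 and 0.88 in the second. It held 517 and 929 cells with Cd8b1, against 112 and 339 in the Itgae/Gzmc T gate. Cells with Cd4 and no Cd8a or Cd8b1 numbered 172 and 531 there. The part of this coreceptor mix in the T contrast was not tested. The coreceptor-negative class includes cells whose coreceptor was missed. Exact Poisson intervals cover counting error only, cells of several samples were pooled, and no test was made.

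**Figure D3:**
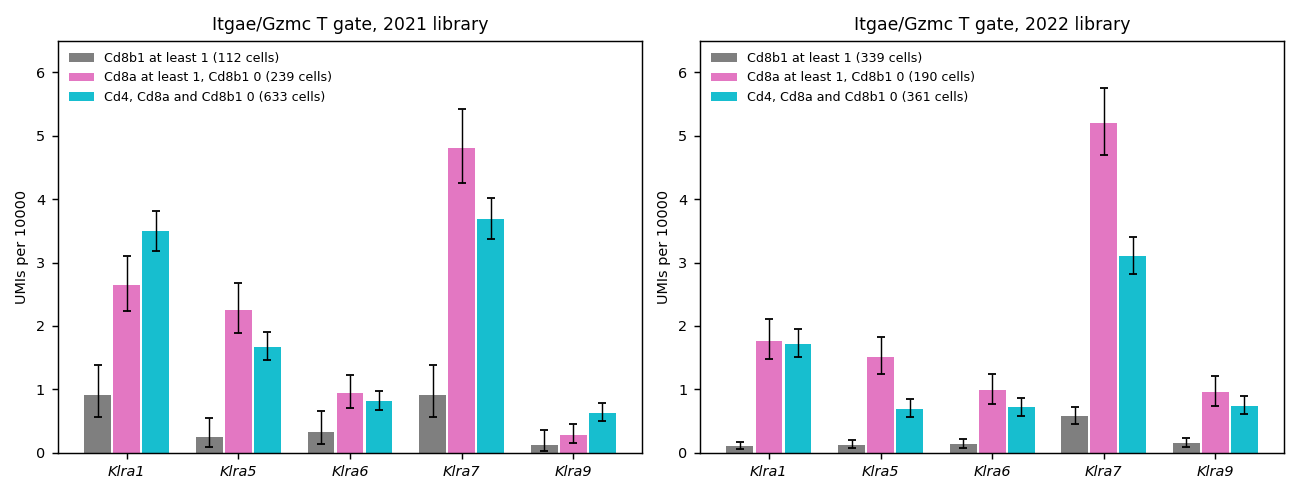
Members in T cells with an Itgae or Gzmc UMI (UMIs per 10000, bars with exact 95% Poisson intervals), split by coreceptor UMIs, with the first library on the left and the second library on the right without Balb/c. Of the 3 classes drawn, cells with Cd8b1 have the lowest level of each gene shown, such as 0.91 and 0.58 for Klra7. Cells with Cd4 and no Cd8a or Cd8b1 are not drawn.

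The Cd3e Ncr1 gate had the highest medians for Klra7 and Klra1 of all gates. Klra7 ran from 1.11 to 6.56 UMIs per 10000 with a median of 4.23 over 10 samples, and Klra1 from 1.27 to 5.24 with a median of 3.22. Neither range was clear of that of the Itgae/Gzmc T gate. Klra4 in this gate had a median of 0.75 and Klra8 of 0.43, below the lowest NK gate sample. Cells with both genes can also be 2 cells in 1 droplet that the doublet caller missed.

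In Balb/c the NK gate had less of most members. The 79 Balb/c cells had 4.57 UMIs per 10000 of the 8 members together, against 25.8 in the other samples of the second library pooled, a ratio of 0.177 (exact 95% interval 0.146 to 0.212). Klra4 was at 0.61 and Klra8 at 0.53, where the lowest of the other samples of the second library had 4.82 and 3.53, with ratios of 0.0899 and 0.0846. Without the HT2 sample among the others, the ratio was 0.194 (0.160 to 0.233) for the 8 members, 0.102 for Klra4 and 0.0992 for Klra8. Klra9 was at 0.23, a ratio of 0.0731. Klra13-ps was lower to a smaller degree, at 1.75 against 4.05, a ratio of 0.433 (0.314 to 0.585). The intervals cover counting error only, as Balb/c is 1 sample without a replicate, and no test was made. Klra5 had 3 UMIs in the Balb/c NK gate, a ratio of 0.746 (0.143 to 2.47), and Klra6 had 1, a ratio of 0.301 (0.0072 to 1.89). Both intervals include 1. The upper end for Klra5 was below its ratio in the other innate and T gates, of which the lowest was 3.94 in the Cd3e Ncr1 gate.

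Not every NK transcript was low in Balb/c. Klra3 (Ly49C), a family gene outside the 8, was at 1.64 UMIs per 10000 in the Balb/c NK gate and at 1.60 in the other samples of the second library, a ratio of 1.02 (0.722 to 1.42). Prf1 was at 7.12 against 6.99 and Klrb1c, which encodes the NK1.1 receptor, at 2.70 against 7.76. Reads of Balb/c animals were counted with mm10, a C57BL/6J assembly, and the effect of sequence differences between strains on these counts was not tested. Strain and hash tag cannot be told apart here.

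Klra5 was higher in Balb/c than in the other samples of the second library in each gate of innate and T cells except the NK gate. Among Itgae/Gzmc innate cells, 230 Klra5 UMIs in 271 Balb/c cells gave 2.53 UMIs per 10000 (2.21 to 2.88), whereas the 3 other samples of the second library with at least 20 cells lay between 0.40 and 0.46. The ratio to all other samples of the second library pooled was 6.99 (4.88 to 10.3), and 6.57 (4.59 to 9.66) without the HT2 sample. Klra5 was also higher in the Itgae/Gzmc T gate, at 3.55 against 0.60 (ratio 5.88), and in the Cd3e Ncr1 gate, at 3.07 against 0.78 (ratio 3.94). In Balb/c 26.2% of Itgae/Gzmc innate cells had a Klra5 UMI, against 2.33% of 86 Balb/c B cells, at median depths of 3194 and 2151.5 UMIs. Klra13-ps was also higher in the Itgae/Gzmc T gate of Balb/c, at 0.80 against 0.32 (ratio 2.53, 1.82 to 3.48), while Klra6 had 3 UMIs there and a ratio of 0.0784 (0.0160 to 0.233). In the Itgae/Gzmc innate gate, Itga1 and the gating gene Itgae were also above the other samples of the second library in Balb/c, at 8.62 and 8.95 against 5.95 and 6.55, and their part in the Klra5 level was not tested.

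**Figure D4:**
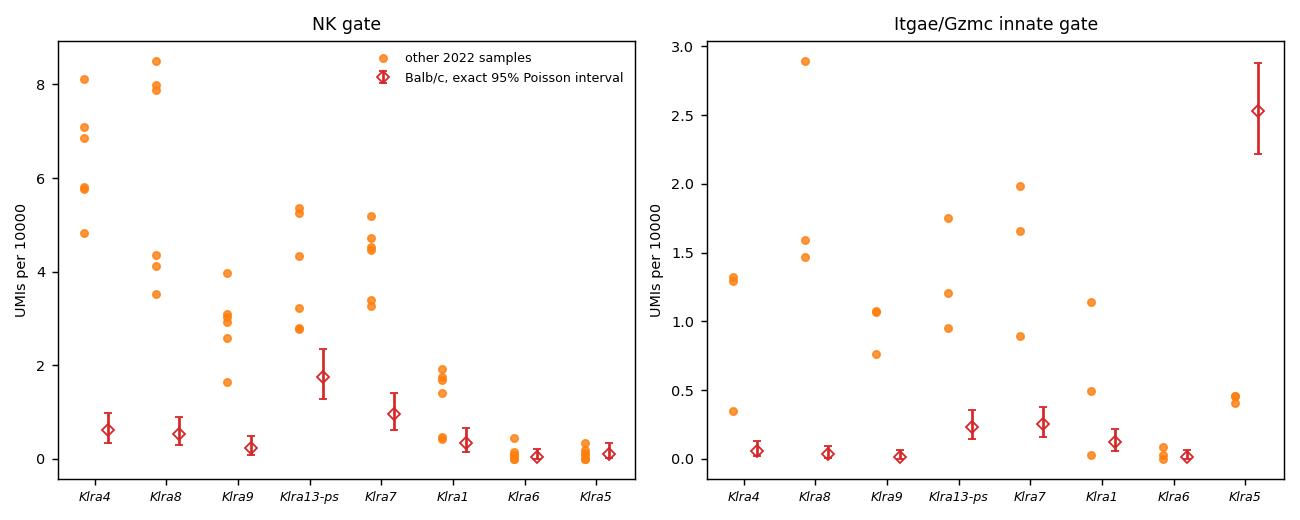
Members in Balb/c (open diamonds, UMIs per 10000 with exact 95% Poisson intervals) and in each of the other samples of the second library with at least 20 cells (filled points), in the NK gate on the left and the Itgae/Gzmc innate gate on the right. In the NK gate Balb/c is below every other sample for Klra4, Klra8, Klra9, Klra13-ps, Klra7 and Klra1, and in the Itgae/Gzmc innate gate it is above them for Klra5.

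Single NK cells carried several members at once. Without thinning, 52.9% of the 278 NK gate cells of the first library and 79.5% of the 414 of the second library had UMIs of 2 or more of the 8 genes. When each cell was thinned to 1000 UMIs before gating, leaving out shallower cells, the shares were 47.4% (54 of 114 cells, exact 95% interval 37.9 to 56.9) and 47.0% (55 of 117 cells, 37.7 to 56.5). The difference between the libraries was thus not seen at equal depth. In Balb/c 3 of 31 thinned cells (9.68%, 2.04 to 25.8) had 2 or more, and 26 of them had none. Of the NK gate cells of the second library with a Klra4 UMI, 68.7% also had Klra8, against 38.8% of the others, and in the first library these shares were 44.7% and 28.4%. After thinning they were 44.7% and 25.3% in the second library and 31.8% and 31.4% in the first library, so the excess was not seen in thinned cells of the first library.

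Between stages, the innate gates showed no called difference in any member. Of the stages, only Gestation and Lactation had analysed cells in both libraries. In the combined NK and Eomes-negative innate gates, Klra9 was at 2.62 and 1.99 UMIs per 10000 in the Gestation samples of the first and the second library and at 1.55 and 1.56 in the Lactation samples, lower in both libraries. The log2 fold change of Lactation against Gestation was -0.60 (SE 0.21, adjusted p = 0.71). Klra8 moved in opposite ways, from 3.26 to 1.44 in the first library and from 2.52 to 4.88 in the second library, and gave -0.12 (SE 0.46). By edgeR's quasi-likelihood test, with the year as a block and 1 residual degree of freedom, 0 of 7 members tested were called. Of all 6754 genes 1 was called (0.0148%), with 438 at an unadjusted p under 0.05, and DESeq2 likewise called 1 gene and 0 members. Klra9 was the member with the unadjusted p of 0.026.

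Among Itgae/Gzmc innate cells 0 of 7 members were called between these stages, and of 4010 genes 0 were called (0.00%), with 98 at an unadjusted p under 0.05, while DESeq2 also called 0. The Lactation sample of the second library had 16 cells in this gate and a weak tag, with a median of 6 counts. Standard errors of the members' log2 fold changes ran from 0.48 to 0.67.

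In T cells no test between stages was made, and the values are given as a description. In the Itgae/Gzmc T gate Klra7 was at 3.54 UMIs per 10000 in Gestation and 4.67 in Lactation in the first library, and at 2.10 and 4.35 in the second library. Klra1 was at 2.72 and 3.68 in the first library and at 0.88 and 2.24 in the second library, and Klra5 at 1.36 and 2.26 and at 0.54 and 1.13. The Lactation sample was the higher one in both libraries for each of these 3 genes. Levels in this gate differed with the coreceptor genes, and the part of each sample's coreceptor mix in these values was not tested. The Involution sample of the second library, with 0.67 for Klra7 and 0.32 for Klra5, and the Regression sample of the second library, with 1.10 and 0.02, were below the other samples of the second library of at least 20 cells other than Balb/c.

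The libraries themselves differed in 1 member. In the NK gate Klra13-ps lay between 1.19 and 2.06 UMIs per 10000 in the 4 samples of the first library and between 2.78 and 5.37 in the 6 of the second library, without overlap. The denominators include UMIs of the gene CT010467.1. Leaving them out raised Klra6 in this gate from 0.206 to 0.251 in the HT2 sample of the first library. In the GF sample of the second library it went from 0.436 to 0.461. The part of this gene in the Klra13-ps levels was not tested. Its log2 fold change of the second library against the first was 0.99 (SE 0.23, adjusted p = 0.0079 by edgeR's quasi-likelihood test), and it was the single member called of 6 tested, where 6.57% of 2436 genes were called. The year and the stages it holds cannot be fully told apart.

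Genes for the signalling partners of the receptors were read in the same contrasts. Tyrobp, the adaptor of the activating receptors, was at 0.04 on the log2 scale (SE 0.11, adjusted p = 0.89) in the Itgae/Gzmc innate gate against the NK gate. In the Eomes-negative innate gate it fell by 0.37 (SE 0.083, adjusted p = 0.0085), the single gene called of the 10 adaptor and signalling genes. In the Itgae/Gzmc innate gate, 1 rose (the kinase Zap70, 0.51, adjusted p = 0.041) and 1 fell (the kinase Syk, -1.28, adjusted p = 0.00022). Of 6 genes of class I MHC and its assembly, listed for the ligands, 0 were called in this contrast or between the T gates. In the NK gate 2 of the 6 were called higher than in the Itgae/Gzmc T gate, where 9.17% of genes were. Between libraries 3 were called higher in the second, where 6.57% of genes were called in either direction. In the T contrast 5 of the 10 signalling genes rose, among them Tyrobp (1.28, adjusted p = 3.9e-05) and Lat2 (1.40, adjusted p = 2.4e-05), an adaptor of lymphocyte receptors, and Syk fell (-0.73, adjusted p = 0.0019). For Tyrobp the T contrast minus the innate contrast was 1.34 (SE 0.39), which did not pass (adjusted p = 0.073). Of 8 transcription factors listed, 5 could be tested in the Itgae/Gzmc innate contrast and 7 in the T contrast. Runx3 (0.54, adjusted p = 0.0059) rose and Tcf7 (-1.48, adjusted p = 0.0018) fell in the Itgae/Gzmc innate gate, with Eomes lower too, a gene that defines the NK gate. In T cells Runx3 (0.77, adjusted p = 1.2e-05) and Nfil3 rose and Tcf7 (-1.53) and Eomes fell. All adjusted p-values here are from edgeR's quasi-likelihood test.

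The other Klra symbols were read alongside. Klra3 had the same signs as Klra7 and Klra9, with -1.94 on the log2 scale in the Itgae/Gzmc innate contrast (adjusted p = 4.6e-07) and 1.17 in the T contrast (adjusted p = 0.0031). Klra2 was a gene of the myeloid gate instead, at 0.95 UMIs per 10000 in the first library and 0.67 in the second library, against 0.02 in the NK gate in both. Klra17 had no UMI in 8 of 10 NK gate samples. Klra14-ps, Klra10 and Klra11-ps were sparse. In the NK gate their highest samples were at 0.65 and 0.22 UMIs per 10000, both Lactation of the second library, and at 0.07, Regression of the second library. The highest Klra14-ps level in the Itgae/Gzmc T gate was 0.02, in the Gestation sample of the first library.

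Over 83 sums of a gate in a sample, the genes outside the family with levels most like the sum of the 8 were Klrb1c (Pearson r = 0.951), Klre1 (0.948), Nkg7 (0.947) and Klrd1 (0.937), followed by Serpinb6b, Ccl5, Sytl3 and Cst7. Those most like Klra5 were Itga1 (0.842), Cish (0.841), Cd7 (0.835) and Gzmb (0.828), followed by Tnfsf10, Trgc1, 1810041H14Rik and Trgc4. The sums share libraries, samples and gates, so these are descriptions without a test. Balb/c sums were included, and their part in these correlations was not tested.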

How the data were processed

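The values are raw UMI counts per gene and cell and counts of hash tags per cell, deposited by the authors as matrices that were unfiltered in the first library and held barcodes already filtered in the second. The count matrices were made with Cell Ranger 6.1.0 and mm10, per the submitters' processing notes. Barcodes with at least 500 UMIs, 300 genes and at most 10% mitochondrial UMIs were kept (21604 cells in the first library, 21177 in the second library). Doublets were called with Scrublet in scanpy 1.11.5 (9.114% and 7.669%) and left out, and tags with at least 100 counts were assigned with HTODemux in Seurat 5.3.0 (quantile 0.99).

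Counts were summed over the cells of a gate in a hash-defined sample, for sums of at least 20 cells (in the stage contrasts of 2 libraries, all cells). They were tested with edgeR 4.0.16 in R 4.3.3: TMM scaling, its filter on low counts, the quasi-likelihood test, the hash-defined sample (or, between stages, the year) as a block, and Benjamini-Hochberg adjustment over all genes tested with a threshold of 0.05. The sample block holds because both gates hold cells of the same tag. Balb/c entered a test only as an alternative. DESeq2 1.42.0 and other scalings, filters, gates and tag calls were alternatives. Intervals are exact at 95% and cover counting error only. On simulated counts for the Itgae/Gzmc innate against NK contrast, 37 of 100 genes changed by 1 on the log2 scale were called, and 76 of 100 changed by 2, with 5 false calls among 3125 genes tested.

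The genes read were the 8 members in every comparison, the other Klra symbols, fixed lists of adaptors, ligands and transcription factors, and the 8 genes outside the family most like 2 profiles. The members and lists were chosen with earlier results of these data known. The comparisons of the NK gate with the Itgae/Gzmc T gate, between libraries, and of the T contrast with the Itgae/Gzmc innate contrast, and the Balb/c ratios without the HT2 sample, were added after seeing the data.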

Additional observations from a re-analysis of the deposited data

Results flagged for a closer look

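Of 32 groups of 4 to 10 samples that were searched for a sample far from the others, 5 held one, where chance gives about 1 in 20. Klra6 in the NK gate of the GF sample of the second library was at 0.436 UMIs per 10000, with the nearest of the 6 samples at 0.148. Klra5 in the Itgae/Gzmc T gate of the Lactation sample of the first library was at 2.262, with the nearest of 4 at 1.359. Klra13-ps in the same gate of the HT2 sample of the first library, which had 23 cells, was at 0, with the nearest of 4 at 0.204. At 0 counts the exact 95% upper limit there was 0.90, above that nearest value, so the 2 samples could not be told apart. Klra4 in that gate was at 0.171 in the Regression sample of the second library, with the nearest of 5 at 0.0361. Klra9 was at 1.457 there in the GF sample of the second library, with the nearest of 5 at 0.422.

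The T contrast (Itgae/Gzmc T gate minus other T gate) and the innate contrast (Itgae/Gzmc innate gate minus NK gate, which also requires an Eomes UMI) differed, by edgeR's quasi-likelihood test of the difference in 6 samples, for Klra7 (2.922 on the log2 scale), Klra9 (2.984) and Klra13-ps (1.931).

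Cells that passed no gate, which enter no comparison, held more of the family than B cells did. The 8 members summed to 3.412 UMIs per 10000 in 7180 such cells of the first library, against 0.2511 in the B gate, and to 2.824 in 2612 cells of the second library without Balb/c, against 0.2173.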

How the results depend on the processing

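In the innate and T contrasts the direction of every member tested held under the alternatives run, and Klra4, Klra8 and Klra13-ps were called in the Itgae/Gzmc innate contrast wherever they were tested. After thinning every cell to 1000 UMIs, which left fewer cells and samples, 3 members were called in that contrast, 1 in the Eomes-negative contrast and 3 in the T contrast, and in the first library alone 2 were called in the Eomes-negative contrast. Klra7 in the Itgae/Gzmc innate contrast missed the threshold in the first library alone and after thinning (-1.20), and Klra9 did with at least 2 UMIs of a gating gene (-1.24). After thinning, Balb/c in the NK gate had 0.323 UMIs per 10000 of Klra4, 0 of Klra8 and 2.906 of the 8 members, and with tags called by ratio Klra5 in its Itgae/Gzmc innate gate was at 2.202. Without thinning the share of NK gate cells of the second library with 2 or more members was 79.469%, and 79.358% with doublet calls kept. Of 792 levels by gate and sample, thinning moved 482 beyond their interval, and leaving UMIs of CT010467.1 out of the denominator moved 42.

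Members called between Lactation and Gestation ranged from 0 to 0 when each of the 4 samples was left out, in both gate sets, with no year block, as 3 samples leave it no residual degree of freedom. Signs of these uncalled members reversed as follows, on the log2 scale, and the cause was not tested. For the NK and Eomes-negative innate gates, Klra5 was -0.86 by DESeq2, Klra1 -0.30 and Klra7 0.43 after thinning, and Klra1 -0.63 with tags by ratio. With a sample left out, the values ran from -0.33 to 0.99 for Klra1, -0.41 to 0.14 for Klra4, -6.30 to 1.00 for Klra5, -0.26 to 0.026 for Klra7, -0.92 to 0.59 for Klra8 and -0.78 to 0.33 for Klra13-ps. For the Itgae/Gzmc innate gate, Klra4 was -0.093 and Klra13-ps -0.056 with no year block, Klra4 -0.015 with doublets kept and Klra9 -1.25 with tags by ratio. With a sample left out, they ran from -0.59 to 1.61 for Klra4, -6.49 to 0.36 for Klra5, -0.95 to 2.59 for Klra8, -0.66 to 1.30 for Klra9 and -0.70 to 0.90 for Klra13-ps. The lowest Klra5 values rest on a Lactation sample with 0 counts. Elsewhere, Klra1 between libraries was 0.39 without the HT2 samples, and Klra7 in NK against T cells was -0.10 after thinning.

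Counts over all genes varied more. The Itgae/Gzmc innate contrast called 382 genes, 198 by DESeq2, 120 with 2 UMIs of the gating gene, 211 in the first library alone, 188 in the second library alone and 26 after thinning. The Eomes-negative contrast called 127, 75 by DESeq2, 385 with no filter, 28 with no block, 17 with 2 UMIs, 29 in the first library alone, 84 in the second library alone and 9 after thinning. The T contrast called 1029, 477 with no block, 541 with 2 UMIs, 448 in the first library alone, 443 in the second library alone and 325 after thinning. The NK against T comparison called 626 and 40 after thinning, the difference of contrasts 149 and 14, and the library comparison 160 and 103 without the HT2 samples. Between stages, the first gate set called 1 gene, 92 with no filter, 5 without TMM, 24 with doublets kept and 34 to 67 with a sample left out, and the second 0, 6 with no filter and 1 to 18.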
